A study of Homo sapiens with 14 samples.

Results

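The effect of osmotic compression on HepG2 cells was set against the effect of a weight on the same line, gene by gene. The quantity compared was an interaction: the log2 difference between 4% PEG and isotonic medium, minus the log2 difference between a weight and no compression. It used 8 of the 14 libraries of the series. Of the 56479 genes in the table, 14536 had at least 1 CPM in 2 of the 8 libraries and were tested; CPM is a gene's count scaled to a common library size. A positive interaction means that the PEG effect was the higher of the pair, and a negative one that it was the lower.

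HepG2 is a liver tumour line, labelled as a hepatoblastoma, of wild-type genotype, and every library came from this line. In the osmotic arm the cells grew on culture dishes. Their medium either held 4% of the polymer polyethylene glycol (PEG) for 5 days or was isotonic and held none. In the other arm the cells grew on transwell membranes, either with a weight on top or uncompressed. The sources used here give neither the load nor its duration. Each group had 2 libraries, which the dish labels call biological replicates. Separate cultures are not described, so the p-values measure the spread between labelled samples, which may be technical. Dish and transwell go with the kind of compression, so surface, handling and kind of compression cannot be told apart in the interaction. The sequencing run of each library is not given, so a difference in run between the arms cannot be told apart from these either.

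Cells in hyperosmotic medium lose water and shrink, and liver cells respond by taking up and making small organic solutes. A weight presses on cells from outside and acts on the cytoskeleton, adhesion and the stretched membrane. Hepatocyte-like tumour cells such as HepG2 are known for dividing quickly while secreting plasma proteins such as albumin, complement and protease inhibitors.

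Library totals ran from 23990601 to 35394448 counts. Mitochondrially encoded genes took 7.34% and 5.05% of counts under PEG, 1.87% and 0.999% in isotonic medium, 3.02% and 1.72% under the weight, and 2.73% and 0.808% without it. All 10 liver markers reached 1 CPM in each of the 8 libraries. Their summed level was 28250 to 32200 CPM under PEG, 122700 to 133900 CPM in isotonic medium, 83460 to 91990 CPM under the weight and 92240 to 99660 CPM without it. PTPRC, which marks leukocytes, and COL1A2, which marks fibroblasts, had no count in any library. Of the marker lists for other cell types, 2 of 4 leukocyte genes (LYZ and CD68), 1 of 5 fibroblast or stellate genes (PDGFRB), 2 or 3 of 4 endothelial genes and 3 or 4 of 4 bile duct genes reached 1 CPM in a library. The bile duct list summed to 837 and 873 CPM under PEG, 602 and 543 CPM in isotonic medium, 775 and 765 CPM under the weight and 497 and 489 CPM without it. Within it KRT19 had 431 and 563 CPM under PEG, 23.1 and 46.8 CPM in isotonic medium, 161 and 154 CPM under the weight and 46.5 and 47.4 CPM without it, while SOX9 and EPCAM were lower in both PEG libraries than in isotonic ones and KRT7 was at 0 in both PEG and both uncompressed libraries. The leukocyte list, nearly all LYZ, summed to 446 to 528 CPM under PEG, 3436 to 4329 CPM in isotonic medium, 2395 to 2483 CPM under the weight and 4287 to 4389 CPM without it. The part of these markers, and of the mitochondrial share, in the results was not tested. Fewer cells of a type and less RNA per cell cannot be told apart in such bulk samples.

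The arms differed in how well their libraries repeated. The biological coefficient of variation (the spread between replicates beyond counting error) was 0.281 for the PEG pair and 0.314 for the isotonic pair, against 0.0700 for the weight pair and 0.0617 for the uncompressed pair. Within the dish pairs the replicate difference followed GC content across genes (Spearman correlation -0.744 for PEG and -0.735 for isotonic), which it hardly did in the transwell pairs (-0.0254 for the weight and -0.145 for uncompressed). The replicate differences of the PEG and isotonic pairs correlated at 0.779 across genes, against 0.12 between the transwell pairs. Part of the dish spread thus followed the replicate number in both dish groups, and the fit used here counts it as noise. The interaction itself was not related to GC content across the 14536 genes (Spearman correlation -0.0139).

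The PEG effect and the weight effect differed for many of the tested genes. The interaction was called, at an adjusted p under 0.05 in edgeR's quasi-likelihood test, for 3465 genes (23.8% of those tested). It was positive for 1474 genes (10.1%) and negative for 1991 (13.7%), and 3056 of the calls had a log2 size of at least 1. PEG was the larger of the effects in absolute size for 91.5% of the called genes, against 75.4% of all tested genes. The median absolute effect was 0.65 for PEG and 0.27 for the weight on the log2 scale. The dish pairs also had the wider replicate spread, as given above, and its part in this gap was not tested. In all 3465 called genes the 4 library-pair ratios of PEG lay wholly to 1 side of the 4 ratios of the weight, as they did in 53.3% of all tested genes. The ratios come from the same libraries as the calls, so they are not separate support for them.

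The count depended on the transwell libraries and on the model. It was 1397 without uncompressed replicate 1, 1399 without uncompressed replicate 2, 1520 without weight replicate 1 and 1563 without weight replicate 2, and between 3303 and 4139 with any dish library left out. A fit that let dish and transwell libraries differ in spread (limma-voom with quality weights) called 2922 genes, of which 2616 were among the 3465. A GC correction raised the count to 6693 and a fit over all 14 libraries raised it to 5600. A fit with a term for replicate number within each surface raised it to 8666, though no label ties a number to a shared batch. The split between directions depended on scaling: 42.5% of the calls were positive with TMM scaling and 68.2% of 4357 with total-count scaling, which moved the median interaction of all genes from -0.02 to 0.36. No gene called with TMM scaling was called with the other sign under any setting tried.

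**Figure D1:**
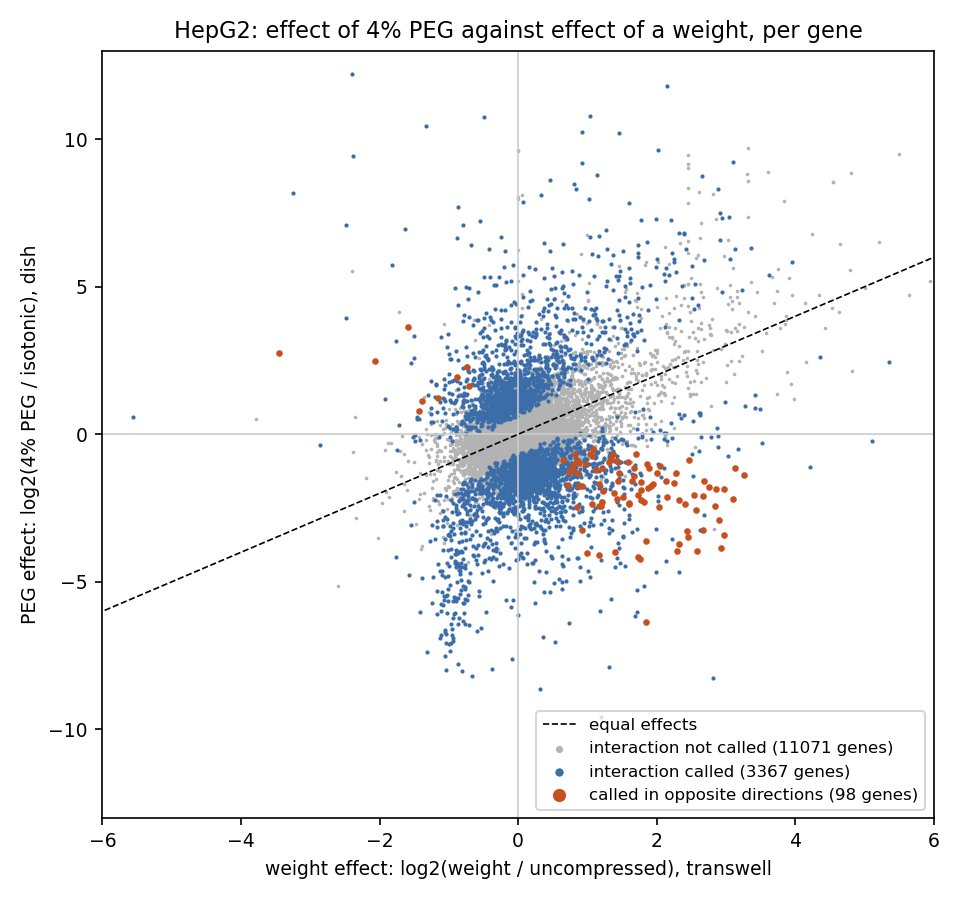
Each point is a tested gene, with the log2 weight effect on transwell along the horizontal axis, the log2 PEG effect on dish along the vertical axis and the dashed line where they are equal. Genes with an interaction call spread mostly up and down because the PEG effect was usually the larger, and the 98 genes called in opposite directions sit at the upper left (9) and the lower right (89); 4 genes lie outside the axes.

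Taken alone, the PEG effect was called for 6260 genes (43.1%), 3019 higher (20.8%) and 3241 lower (22.3%), and the weight effect for 487 genes (3.35%), 393 higher (2.7%) and 94 lower (0.647%). Both effects were judged on 1 spread pooled over dish and transwell, and the numbers moved a great deal when that was changed. With a spread per surface, 3175 genes were called for PEG and 6514 for the weight. Without either uncompressed library no gene was called for the weight by edgeR, although 1317 without replicate 1 and 1266 without replicate 2 had an unadjusted p under 0.05. Without weight replicate 1 or 2 the weight calls numbered 52 and 53, and without isotonic replicate 1 or 2 they numbered 947 and 939. A gene not called for the weight is therefore not shown to have been untouched by it.

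Across the 14536 genes the effects had the same sign in 55.6% of cases, with a Pearson correlation of 0.337 and a Spearman correlation of 0.205. These correlations describe genes within the same 8 libraries, not replicates; the arms share no library.

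Sorting genes by the 3 tests gave 10 combinations with at least 1 call. The largest held 3016 genes called for PEG and the interaction but not for the weight, of which 1311 were higher and 1705 lower under PEG. A further 2852 genes were called for PEG alone. Genes called in the same direction by both effects numbered 294, which is 60.4% of the weight calls and 4.70% of the PEG calls. Of these, 100 were more strongly changed by PEG, 10 by the weight, and 184 had no interaction call. In opposite directions, 89 genes were lower under PEG and higher under the weight, and 9 were higher under PEG and lower under the weight. Another 69 genes were called for the weight and the interaction but not for PEG.

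**Figure D2:**
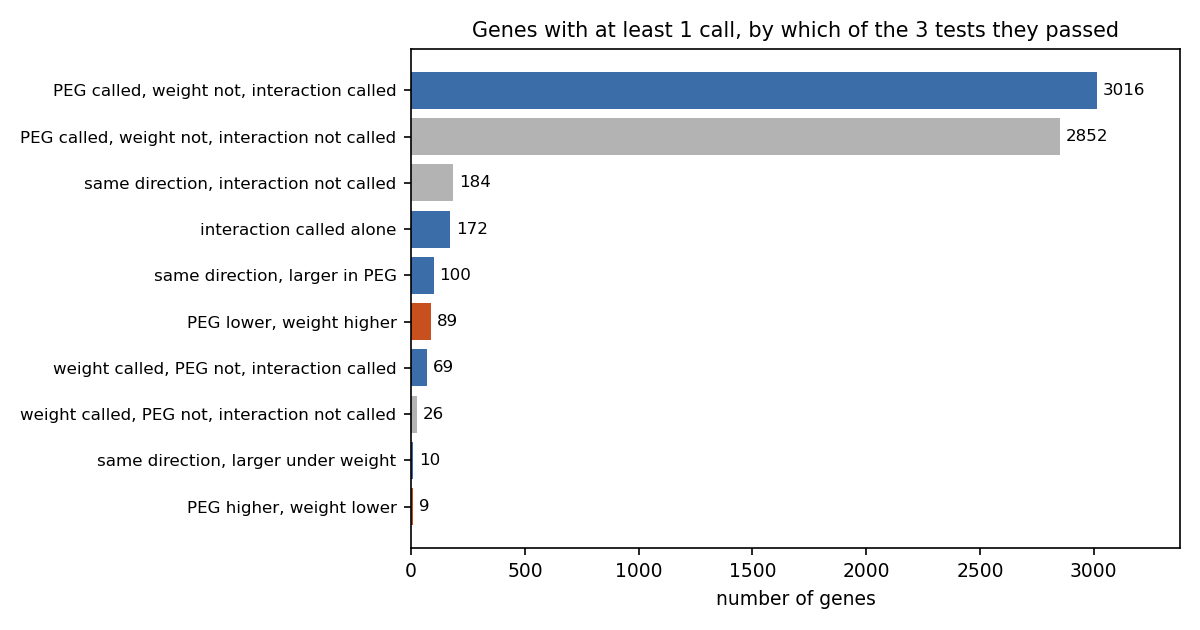
Bars give the number of genes in each combination of calls (horizontal axis) for the PEG effect, the weight effect and their interaction. Combinations with opposite calls are orange, the others with an interaction call are blue and those without one are grey; the top bar holds 3016 genes and the opposite combinations hold 89 and 9.

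The interaction also contains the difference between the uncompressed groups, and this was measured. Uncompressed transwell cells and isotonic dish cells differed for 200 genes in the same fit, which shares its libraries with the interaction. In 487 of the 3465 called genes (14.1%) the uncompressed groups differed more than the compressed groups did. That share was 11.7% where PEG and the interaction were called, 14.6% among the 89 genes lower under PEG and higher under the weight, 53.6% among the 69 genes called for the weight and the interaction but not for PEG, and 60% among the 10 genes more strongly changed by the weight. Among the 89 genes, 28 (31.5%) had a called difference between the uncompressed groups, against 200 of all tested (1.38%), and the median absolute difference was 1.09, against 0.29 over all tested genes. Uncompressed transwell cells were below isotonic dish cells in 87 of the 89, and above them in all 9 genes called higher under PEG and lower under the weight. These classes were chosen by effects measured against the same control libraries. The choice itself therefore favours control differences of this sign and size, and the comparison with all genes is not independent.

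Mitosis genes had the most negative median interaction of the 33 gene lists examined. Of the 32 tested genes that drive spindle assembly, chromosome segregation and cytokinesis, 31 had a PEG effect below the weight effect, and none had the reverse. The remaining member, ECT2, was lower under PEG without an interaction call. The median interaction over the list was -4.33, against -0.02 over all genes. All 32 were lower under PEG, with a median log2 effect of -5.31, and 5 of 32 were called lower under the weight, with a median of -0.93. With 1 library left out, 27 to 32 of the 32 were called. Where a list median below is said to turn with total-count scaling, its sign changed in 2 to 6 settings in all. For cholesterol synthesis it changed in 1. Member counts of this and the following lists stand against the shares over all tested genes. Of all genes 10.1% had a positive and 13.7% a negative interaction call. Under PEG 20.8% were called higher and 22.3% lower, and under the weight 2.7% higher and 0.647% lower.

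PLK1, a kinase needed for mitotic entry and the spindle, lies on chromosome 16 (23677656 to 23690367, GRCh38). It had 1.77 and 2.17 CPM under PEG, 86.4 and 73.4 CPM in isotonic medium, 56.7 and 54.5 CPM under the weight and 116 and 122 CPM uncompressed. The PEG libraries stood far below the rest, and the weight libraries below both uncompressed groups, with no overlap. The PEG effect was -5.34 ± 0.20 (log2, SE) and the weight effect -1.09 ± 0.16, and their difference was -4.25 ± 0.24 (adjusted p = 0.000189, edgeR quasi-likelihood, Benjamini-Hochberg).

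BIRC5, which encodes survivin, an inhibitor of apoptosis and a member of the chromosomal passenger complex, had 0.530 and 0.275 CPM under PEG, 78.5 and 56.0 CPM in isotonic medium, 39.1 and 36.0 CPM under the weight and 94.6 and 92.4 CPM uncompressed. Its interaction was -6.05 ± 0.39 (adjusted p = 0.000258). FOXM1, a transcription factor of the late cell cycle, had 0.647 and 0.887 CPM under PEG, 33.9 and 37.0 CPM in isotonic medium, 31.5 and 32.1 CPM under the weight and 60.6 and 60.4 CPM uncompressed. In both genes the order of the groups was that of PLK1. MYBL2, another cell cycle transcription factor and among the 8 largest negative interactions by the naming rule, had an interaction of -7.20 ± 0.57 (adjusted p = 0.000428).

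Promoters of these genes are shown because the members moved together; they are RefSeq sequences of the GRCh38.p14 build, 250 bases before the start site. A RefSeq promoter was found for 10305 of the 14536 tested genes, and for 27 of the 32 mitosis genes. Letters searched on both strands were TTTGAA, the core of the cell cycle homology region (CHR) found in promoters of late cell cycle genes, and CCAAT, the box bound by NF-Y. The CHR letters occurred in 15 of the 27 mitosis promoters (55.6%) and in 8.47% of all 10305. The CCAAT letters occurred in 21 of the 27 (77.8%) and in 35.4% of all. The 3 members with the most negative interactions and a promoter in the table follow, with both motifs in capitals (reverse strand matches read TTCAAA and ATTGG).
CDK1 (chr10:60778081-60778330, plus strand): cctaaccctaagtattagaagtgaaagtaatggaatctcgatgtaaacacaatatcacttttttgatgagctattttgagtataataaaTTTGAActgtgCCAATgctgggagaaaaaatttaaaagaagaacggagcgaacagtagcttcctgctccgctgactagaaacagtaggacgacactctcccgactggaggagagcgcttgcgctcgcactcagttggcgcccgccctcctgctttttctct
TOP2A (chr17:40417897-40418146, minus strand): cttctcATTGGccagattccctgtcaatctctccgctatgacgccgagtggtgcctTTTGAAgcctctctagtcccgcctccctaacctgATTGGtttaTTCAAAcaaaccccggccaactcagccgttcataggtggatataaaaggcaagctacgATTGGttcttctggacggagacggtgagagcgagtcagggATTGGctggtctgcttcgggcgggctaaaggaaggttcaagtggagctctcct
NUF2 (chr1:163321704-163321953, plus strand): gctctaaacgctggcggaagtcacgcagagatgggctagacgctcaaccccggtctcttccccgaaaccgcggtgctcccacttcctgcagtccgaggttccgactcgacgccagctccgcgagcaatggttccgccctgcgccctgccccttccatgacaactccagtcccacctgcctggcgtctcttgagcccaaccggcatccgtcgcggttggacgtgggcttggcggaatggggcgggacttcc

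CDK1, the kinase that triggers mitosis, held 1 CHR and 1 CCAAT match in its window, and TOP2A, which untangles DNA before chromosomes separate, held 2 and 4. NUF2, a subunit of the kinetochore, held neither in this window, yet its interaction of -6.10 ± 0.65 (adjusted p = 0.00124) was close to that of TOP2A, -6.47 ± 0.83 (adjusted p = 0.00230). CDK1 had 0.530 and 0.153 CPM under PEG, 87.5 and 65.1 CPM in isotonic medium, 46.0 and 43.9 CPM under the weight and 85.5 and 78.1 CPM uncompressed. Its interaction was -6.91 ± 0.51 (adjusted p = 0.000366).

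Of 34 tested DNA replication genes, 20 had a negative interaction call and none a positive one, with a median of -1.53. Under PEG 31 of 34 were called lower, and under the weight 3 of 34. The interaction calls numbered 11 to 22 with 1 library left out, the lowest without uncompressed replicate 2. RRM2, the regulatory subunit of ribonucleotide reductase, had 1.85 and 0.734 CPM under PEG, 94.7 and 79.5 CPM in isotonic medium, 61.7 and 61.6 CPM under the weight and 118 and 114 CPM uncompressed. MCM3, part of the replicative helicase, was less depleted, with 23.5 and 20.8 CPM under PEG, 142 and 159 CPM in isotonic medium, 162 and 154 CPM under the weight and 240 and 239 CPM uncompressed. The interactions were -5.15 ± 0.47 (adjusted p = 0.000624) for RRM2 and -2.17 ± 0.20 (adjusted p = 0.000581) for MCM3. In these promoters the letters TTTNNCGC, the general form of an E2F site, occurred in 14 of 30 replication genes (46.7%), against 8.93% of all 10305. The promoter of CDT1, a licensing factor for replication origins, held 2 such matches, in capitals below on the reverse strand.
CDT1 (chr16:88803539-88803788, plus strand): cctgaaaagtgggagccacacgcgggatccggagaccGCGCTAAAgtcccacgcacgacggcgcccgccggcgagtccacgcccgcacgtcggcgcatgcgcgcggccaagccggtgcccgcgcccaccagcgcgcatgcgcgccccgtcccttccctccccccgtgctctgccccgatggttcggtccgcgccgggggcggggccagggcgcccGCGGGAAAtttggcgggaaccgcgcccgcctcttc

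CDT1 had an interaction of -4.82 ± 0.54 (adjusted p = 0.00144). RRM2, the replication gene with the most negative interaction, held no E2F match in its window. CCAAT occurred in 56.7% of the 30 replication promoters (35.4% of all 10305). Other lists were searched too. ACGTG, the hypoxia element core, occurred in 45.2% of 31 hypoxia and glycolysis promoters (23.3%). TGACNNNGC, the antioxidant element, occurred in 22.2% of 18 NRF2 target promoters (12.2%). TGGAAA, the tonicity element core, occurred in 7.14% of 14 hyperosmotic promoters (13.5%). GGAATG, the TEAD site, occurred in 31.2% of 16 YAP and TEAD promoters (9.36%).

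Among genes of CDK inhibition and senescence, 3 of 18 had a positive and 6 a negative interaction call, and the list's median of 0.01 changed sign in 7 settings. The list is mixed, as it also holds genes that are not CDK inhibitors, such as LMNB1 and GLB1. Calls numbered 3 to 10 with 1 library left out, the lowest without weight replicate 2. CDKN2B, which encodes the CDK4 and CDK6 inhibitor p15, had 59.1 and 45.6 CPM under PEG, 1.92 and 1.28 CPM in isotonic medium, 7.55 and 7.88 CPM under the weight and 2.68 and 2.58 CPM uncompressed. It was higher under both compressions, by 5.02 ± 0.28 under PEG and 1.55 ± 0.25 under the weight, and the interaction was 3.47 ± 0.35 (adjusted p = 0.000995). LMNB1, which encodes the nuclear envelope protein lamin B1, had an interaction of -2.80 ± 0.40 (adjusted p = 0.00339). CDKN2B-AS1, the antisense neighbour of CDKN2B and among the 8 largest positive interactions, had 21 and 17.4 CPM under PEG and at most 0.663 CPM in each of the other 6 libraries. It thus passed the filter through the PEG libraries alone. The counting is not stated to use strand, so reads from CDKN2B-AS1 and CDKN2B cannot be fully told apart.

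Genes of the cytosolic ribosome were lower under PEG, and not under the weight. All 61 tested ribosomal protein genes were called lower under PEG, with a median of -1.45, while the median under the weight was 0.08. For the weight edgeR called 0 of the 61 (0 with an unadjusted p under 0.05) and DESeq2 0, but the fit with a spread per surface called 17 higher and 1 lower. The interaction was called negative for 53 of 61 and positive for none. Its values ran from -2.35 to -0.83 across the list, so no member had a positive value. With 1 library left out 35 to 58 members were called, the lowest without uncompressed replicate 1. Total-count scaling called 41, all negative. RPL15, a protein of the large subunit, had 185 and 213 CPM under PEG, 768 and 924 CPM in isotonic medium, 860 and 861 CPM under the weight and 719 and 715 CPM uncompressed. Its interaction was -2.35 ± 0.21 (adjusted p = 0.000585). Ribosomal protein genes have near-identical processed pseudogenes, and how the authors' counting divided such reads is not stated. By contrast 1 of 30 ribosome biogenesis genes had an interaction call: FBL, the nucleolar methyltransferase fibrillarin, at -2.13 ± 0.19 (adjusted p = 0.000576). The median of that list, -0.03, changed sign in 6 settings and was 0.35 with total-count scaling.

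Secreted liver proteins held both large quantitative and opposite differences. Of 36 tested members (40 listed), 29 had a negative interaction call and 1 a positive one, with a median of -2.60. Under PEG 28 were called lower and none higher, with a median of -2.10, while under the weight 5 were called higher and 2 lower, with a median of 0.17. Interaction calls numbered 21 to 31 with 1 library left out. ALB, albumin, lies on chromosome 4 (73397114 to 73421412, GRCh38) and was the most abundant of those named. It had 3024 and 2318 CPM under PEG, 50899 and 48929 CPM in isotonic medium, 30312 and 31343 CPM under the weight and 38088 and 38668 CPM uncompressed. The weight effect of -0.32 ± 0.17 did not pass (adjusted p = 0.406), and the interaction was -3.91 ± 0.25 (adjusted p = 0.000222). SERPINC1, antithrombin, was the single positive call and was named after its values were seen. It had 107 and 137 CPM under PEG, 79.4 and 99.2 CPM in isotonic medium, 47.7 and 51.9 CPM under the weight and 104 and 109 CPM uncompressed. Its PEG effect of 0.45 ± 0.18 did not pass (adjusted p = 0.0815), and its weight effect was -1.10 ± 0.18 (adjusted p = 0.0250).

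Some secreted genes were called in opposite directions. The 5 list members lower under PEG and higher under the weight were SERPINA3, C5, ITIH3, C3 and HP; ITIH3, C3 and HP are named because they complete the count and were chosen after their values were seen. C5, the complement component that starts the membrane attack complex, lies on chromosome 9 (120952335 to 121050276, GRCh38). It had 51.1 and 45.7 CPM under PEG, 892 and 682 CPM in isotonic medium, 982 and 1062 CPM under the weight and 523 and 501 CPM uncompressed. The weight libraries were above every other library and the PEG libraries below every other. Its PEG effect was -4.02 ± 0.19, its weight effect 1.00 ± 0.17 and the interaction -5.02 ± 0.25 (adjusted p = 0.000172). SERPINA3, the acute phase inhibitor alpha-1-antichymotrypsin, had 1.74 and 2.05 CPM under PEG, 15.2 and 21.9 CPM in isotonic medium, 45.5 and 45.7 CPM under the weight and 9.00 and 7.84 CPM uncompressed. Its interaction was -5.72 ± 0.34 (adjusted p = 0.000198). C3, the central complement component, had an interaction of -3.38 ± 0.25 (adjusted p = 0.000366). C8B, a subunit of the membrane attack complex named by the rule for this class, had 1.15 and 0.673 CPM under PEG, 15.2 and 17.1 CPM in isotonic medium, 24.5 and 25.8 CPM under the weight and 7.30 and 7.88 CPM uncompressed, with an interaction of -5.87 ± 0.37 (adjusted p = 0.000229).

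The opposite class as a whole ranged from -8.20 to -1.50 in interaction, with a median of -3.62. The rule also named TNNI2, FLRT3 and CPP. TNNI2, the fast skeletal troponin I, had 0.441 and 0.398 CPM under PEG, 20.4 and 48.9 CPM in isotonic medium, 50.6 and 52.2 CPM under the weight and 13.5 and 15.0 CPM uncompressed, so its isotonic libraries differed more than 2-fold from each other. Its interaction was -8.20 ± 0.62 (adjusted p = 0.000399). FLRT3, a cell adhesion and guidance molecule, had 0.824 and 0.643 CPM under PEG, 13.1 and 9.64 CPM in isotonic medium, 24.4 and 23.5 CPM under the weight and 4.11 and 3.90 CPM uncompressed. Its uncompressed groups differed by -1.50, transwell minus dish. CPP is annotated as a processed pseudogene, and reads of a gene with the same sequence could be counted there, so its value is uncertain.

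The opposite labels rested on the weight calls. All 89 genes kept a negative interaction call and opposite signs with each library left out in turn. However, 0 of the 89 kept calls for both effects without either uncompressed library, and 7 without weight replicate 1 or 2, although all 98 opposite genes had an unadjusted p under 0.05 for the weight in each of those fits. New genes entered when an isotonic library was left out, giving 184 genes without replicate 1 and 171 without replicate 2. With a spread per surface 54 of the 89 kept calls for both effects, and 85 kept the interaction. With total-count scaling 69 kept calls for both.

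Genes higher under PEG and lower under the weight were few. The 9 were GSTA2, AGR2, SLC7A9, TSPAN13, SFMBT1, CPN2, PIK3AP1, ADI1 and ENTPD7, of which the rule named 5 and the others complete the count. AGR2, a protein disulphide isomerase of the secretory pathway, had 48.1 and 48.3 CPM under PEG, 2.78 and 5.08 CPM in isotonic medium, 2.54 and 3.18 CPM under the weight and 8.25 and 8.91 CPM uncompressed. Its PEG effect was 3.63 ± 0.31, its weight effect -1.59 ± 0.30 and the interaction 5.21 ± 0.43 (adjusted p = 0.000456). SLC7A9, a cystine and amino acid transporter, had 13.1 and 15.9 CPM under PEG, 2.05 and 3.11 CPM in isotonic medium, 1.44 and 1.31 CPM under the weight and 5.96 and 5.60 CPM uncompressed. TSPAN13, a tetraspanin, had an interaction of 3.01 ± 0.21 (adjusted p = 0.000276) and SFMBT1, a chromatin reader, one of 2.82 ± 0.23 (adjusted p = 0.000431). CPN2, a subunit of carboxypeptidase N, had 53.2 and 62.3 CPM under PEG, 22.1 and 30.9 CPM in isotonic medium, 22.2 and 23.9 CPM under the weight and 59.2 and 61.5 CPM uncompressed. Its PEG libraries thus reached the level of uncompressed transwell cells, and its weight libraries that of isotonic dish cells. None of the 9 kept both calls without a weight or an uncompressed library, while all 9 kept the interaction, and there were 34 such genes without isotonic replicate 1 and 32 without isotonic replicate 2.

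**Figure D3:**
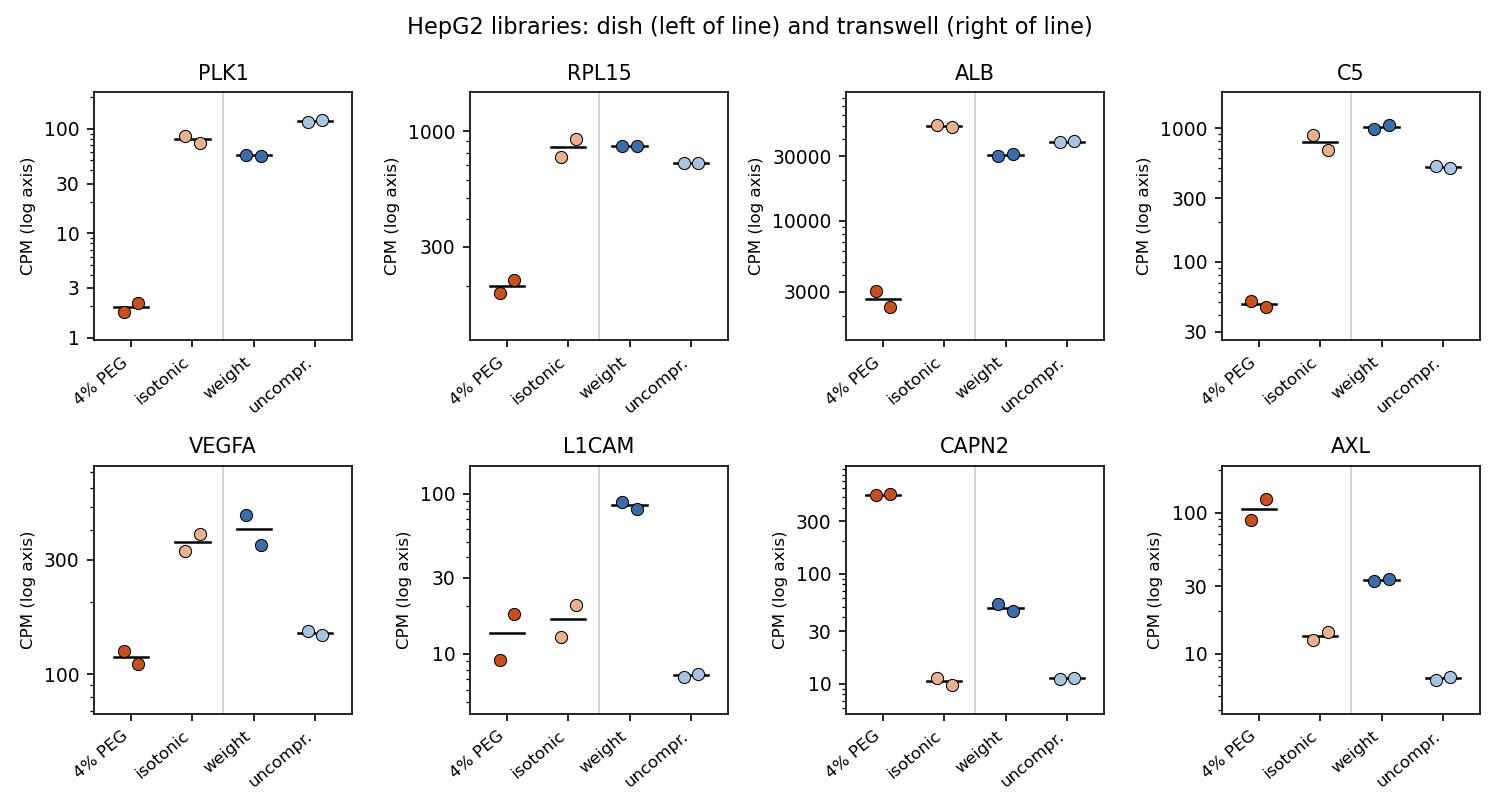
Normalised counts (CPM, log axis) of 8 genes in each of the 8 libraries, with PEG and isotonic dish libraries left of the grey line and weight and uncompressed transwell libraries right of it; points are libraries and bars are group means (n = 2). PLK1, RPL15 and ALB are lowest under PEG, C5 and VEGFA are low under PEG and high under the weight, L1CAM is high under the weight, CAPN2 is higher under both and most under PEG, and AXL is higher under both.

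Hypoxia and glycolysis genes split between the arms. Of 35 tested members, 20 had a negative and 3 a positive interaction call, with a median of -1.29. Under PEG 21 were called lower and 4 higher, and under the weight 6 were called higher and none lower. Interaction calls numbered 14 to 27 with 1 library left out, the lowest without weight replicate 1. VEGFA, the angiogenic growth factor, had 125 and 110 CPM under PEG, 327 and 386 CPM in isotonic medium, 462 and 347 CPM under the weight and 152 and 146 CPM uncompressed, and its interaction was -3.03 ± 0.26 (adjusted p = 0.000513). PEG and uncompressed transwell libraries were at a similar level, and isotonic and weight libraries overlapped. PGK1, a glycolytic enzyme, had 559 and 554 CPM under PEG, 1693 and 1746 CPM in isotonic medium, 1477 and 1394 CPM under the weight and 1079 and 1094 CPM uncompressed, with an interaction of -2.03 ± 0.18 (adjusted p = 0.000548). The positive calls were CA12, PFKP and SLC2A1, named after their values were seen. SLC2A1, the glucose transporter GLUT1, had 1136 and 1486 CPM under PEG, 405 and 545 CPM in isotonic medium, 626 and 589 CPM under the weight and 659 and 655 CPM uncompressed.

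EGLN3, an oxygen-sensing prolyl hydroxylase, was called for the weight and not for PEG, and its controls were unequal. It had 64.9 and 66.5 CPM under PEG, 59.3 and 76.6 CPM in isotonic medium, 108 and 102 CPM under the weight and 15.3 and 13.2 CPM uncompressed. The weight effect was 2.88 ± 0.18 and the interaction -2.93 ± 0.25 (adjusted p = 0.000460), while the uncompressed transwell cells were 2.25 below the isotonic dish cells on the log2 scale. PCK1, the gluconeogenic enzyme PEPCK and named from the hepatocyte metabolism list, showed the same layout. It had 307 and 370 CPM under PEG, 385 and 374 CPM in isotonic medium, 157 and 167 CPM under the weight and 38.4 and 37.0 CPM uncompressed. Its weight libraries were higher than the uncompressed ones yet below all 4 dish libraries. The uncompressed groups differed by -3.33, transwell minus dish, more than the interaction of -2.27 ± 0.20 (adjusted p = 0.000548).

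L1CAM and NGFR, also called for the weight and not for PEG, had compressed groups further apart than the uncompressed ones. L1CAM, a neural adhesion molecule on chromosome X (153861514 to 153886174, GRCh38), had 9.12 and 17.8 CPM under PEG, 12.7 and 20.3 CPM in isotonic medium, 88.2 and 80.7 CPM under the weight and 7.22 and 7.48 CPM uncompressed. Its weight effect was 3.52 ± 0.37 and its interaction -3.81 ± 0.49 (adjusted p = 0.00239). NGFR, a receptor for neurotrophins, had 1.26 and 2.45 CPM under PEG, 2.41 and 3.11 CPM in isotonic medium, 19.3 and 18.0 CPM under the weight and 3.24 and 2.84 CPM uncompressed. In both genes the weight libraries stood above the other 6. ALPK2, an atypical kinase, and GSTA1, a glutathione transferase, had uncompressed groups further apart than the compressed ones. For ALPK2 the compressed groups differed by 0.77 and the uncompressed groups by -1.89, transwell minus dish, with an interaction of -2.66 ± 0.30 (adjusted p = 0.00140). For GSTA1 the compressed groups differed by -0.32 and the uncompressed groups by 2.16, with an interaction of 2.48 ± 0.31 (adjusted p = 0.00193). GSTA1 had 3.34 and 2.88 CPM under the weight, against 21.6 and 23.4 CPM uncompressed. It has close paralogs, such as GSTA2, with which it may share reads. The class held 69 genes, 51 higher and 18 lower under the weight.

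Liver transcription factors and metabolic genes had fewer calls than the secreted products. Of 24 transcription factors 7 had a negative and 2 a positive interaction call (6 to 11 calls with 1 library left out, the lowest without uncompressed replicate 1), with a median of -0.56. ONECUT1, a hepatocyte factor also called HNF6, had 1.26 and 0.887 CPM under PEG, 23.4 and 21.5 CPM in isotonic medium, 16.8 and 19.9 CPM under the weight and 15.8 and 16.2 CPM uncompressed, with an interaction of -4.58 ± 0.32 (adjusted p = 0.000293). NR1H4, the bile acid receptor FXR, had an interaction of -3.21 ± 0.25 (adjusted p = 0.000395). Of 24 hepatocyte metabolism genes tested (32 listed), 9 had a negative and 3 a positive call, and there were 5 calls without uncompressed replicate 1. The median of -0.29 turned to 0.10 with total-count scaling. ARG1, the urea cycle enzyme arginase and among the 8 largest negative interactions, had 0.206 and 0.245 CPM under PEG, 43.4 and 47.7 CPM in isotonic medium, 22.3 and 28.2 CPM under the weight and 27.9 and 25.6 CPM uncompressed. Its interaction was -7.55 ± 0.32 (adjusted p = 0.000172), with no call for the weight.

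Fatty acid oxidation genes had 8 negative calls and 1 positive call of 23, with a median of -0.64, and 4 calls without uncompressed replicate 2. PLIN2, which coats lipid droplets, had 141 and 149 CPM under PEG, 1081 and 1529 CPM in isotonic medium, 1238 and 1140 CPM under the weight and 956 and 926 CPM uncompressed. CPT1A, which carries fatty acids into mitochondria, was in the opposite class, with a PEG effect of -0.68 ± 0.13 and a weight effect of 0.82 ± 0.13. Cholesterol synthesis genes had 4 negative calls of 24, a share below the 23.8% called over all genes, and all were lost without weight replicate 1, where edgeR called none of the 24; the median of -0.34 turned to 0.04 with total-count scaling.

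Several lists had more positive than negative interaction calls. S100 proteins and annexins are small calcium-binding proteins and membrane-binding partners, and their list also holds CAPN1, CAPN2, DYSF and MYOF. The whole list had 9 positive calls and 1 negative call of 23, with a median of 0.85, and 6 calls without weight replicate 2. CAPN2, the calcium-dependent protease m-calpain, lies on chromosome 1 (223701593 to 223776018, GRCh38). It had 516 and 528 CPM under PEG, 11.2 and 9.77 CPM in isotonic medium, 52.8 and 45.5 CPM under the weight and 11.1 and 11.2 CPM uncompressed. S100A11, a partner of annexins in membrane repair, had 206 and 236 CPM under PEG, 3.90 and 4.56 CPM in isotonic medium, 22.9 and 23.7 CPM under the weight and 4.11 and 4.09 CPM uncompressed. In both genes the control groups were level, both compressions were higher, and PEG was the higher by far. For CAPN2 the PEG effect was 5.64 ± 0.17 and the weight effect 2.14 ± 0.15. For S100A11 the PEG effect was 5.71 ± 0.19 and the weight effect 2.51 ± 0.17. The interactions were 3.50 ± 0.21 (adjusted p = 0.000191) for CAPN2 and 3.20 ± 0.23 (adjusted p = 0.000301) for S100A11.

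NRF2 targets, the antioxidant and detoxifying genes, had 9 positive and 2 negative calls of 27, with a median of 0.46 and 8 to 13 calls with 1 library left out. AKR1B10, an aldo-keto reductase, had 98.5 and 112 CPM under PEG, 7.81 and 13.5 CPM in isotonic medium, 11.1 and 10.8 CPM under the weight and 23.5 and 23.9 CPM uncompressed. GCLC, the catalytic subunit of glutathione synthesis, had 514 and 538 CPM under PEG, 129 and 97.4 CPM in isotonic medium, 112 and 100.2 CPM under the weight and 101 and 97.0 CPM uncompressed, with an interaction of 2.12 ± 0.24 (adjusted p = 0.00140). The negative calls were AKR1C1 and AKR1C2, close paralogs that may share reads; AKR1C2 had an interaction of -1.65 ± 0.21 (adjusted p = 0.00210).

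Heat shock chaperones had 6 positive calls and no negative call of 21 (23.8% of all genes were called in either direction), with a median of 0.64, 2 calls without weight replicate 2 and 13 with total-count scaling, all positive. HSPB8, a small chaperone, had 15.9 and 26.0 CPM under PEG, 0.0992 and 0.128 CPM in isotonic medium, 2.58 and 2.08 CPM under the weight and 0.395 and 0.221 CPM uncompressed, and it was called higher under both. HSPH1, a co-chaperone of HSP70, had an interaction of 2.35 ± 0.37 (adjusted p = 0.00509) and no call for the weight. Endoplasmic reticulum chaperones had 6 negative and 3 positive calls of 22, a median of 0.09 that changed sign in 2 settings, and 4 calls without weight replicate 1. HSP90B1, the chaperone GRP94, had 476 and 326 CPM under PEG, 4529 and 2614 CPM in isotonic medium, 2726 and 2680 CPM under the weight and 2593 and 2541 CPM uncompressed. Lysosome and autophagy genes had 9 positive and 3 negative calls of 30, with a median of 0.55 and 4 calls without weight replicate 1. MAP1LC3B, the autophagosome protein LC3B, and CTSL, cathepsin L, had interactions of 1.75 ± 0.21 (adjusted p = 0.00185) and 1.70 ± 0.20 (adjusted p = 0.00146).

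Hyperosmotic response genes were not uniformly higher. Of 21 tested members 6 had a positive and 4 a negative interaction call, with a median of 0.35 and 3 calls without weight replicate 2. Under PEG 10 were called higher and 4 lower, and under the weight none higher and 1 lower. AQP3, a channel for water and glycerol, had 84.5 and 133 CPM under PEG, 7.41 and 6.4 CPM in isotonic medium, 4.17 and 5.38 CPM under the weight and 2.96 and 3.54 CPM uncompressed, with an interaction of 3.42 ± 0.39 (adjusted p = 0.00146). SLC6A6, the taurine transporter, had 142 and 213 CPM under PEG, 48.9 and 44.2 CPM in isotonic medium, 52.6 and 51.6 CPM under the weight and 49.4 and 51.9 CPM uncompressed, with an interaction of 1.89 ± 0.29 (adjusted p = 0.00439). For SLC6A6 the weight, uncompressed and isotonic libraries lay in 1 narrow band below both PEG libraries. SGK1, a kinase that regulates ion transport, was called lower in both arms. It had 6.27 and 3.98 CPM under PEG, 92.5 and 88.8 CPM in isotonic medium, 30.4 and 25.9 CPM under the weight and 97.1 and 93.3 CPM uncompressed, and its interaction was -2.39 ± 0.31 (adjusted p = 0.00255).

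The list of YAP and TEAD targets also holds the factors themselves, YAP1, WWTR1 (which encodes TAZ) and TEAD1. Of its 22 tested members 5 had a positive and 5 a negative interaction call, with a median of 0.43 and 5 calls without weight replicate 1. The negative ones were IGFBP3, GADD45B, CCN2, WWTR1 and AJUBA, and the positive ones PTPN14, NT5E, DOCK5, ANKRD1 and YAP1; those not named by the rule complete the counts. CCN2, a matricellular protein and a standard YAP target, had 311 and 246 CPM under PEG, 2289 and 1539 CPM in isotonic medium, 848 and 866 CPM under the weight and 994 and 998 CPM uncompressed. Its weight effect of -0.22 ± 0.21 did not pass (adjusted p = 0.697). IGFBP3, which binds insulin-like growth factors, had 112 and 94.5 CPM under PEG, 373 and 158 CPM in isotonic medium, 177 and 169 CPM under the weight and 19.9 and 16.3 CPM uncompressed, so its uncompressed groups were further apart than its compressed ones. GADD45B, a growth arrest gene, had 4.00 and 4.28 CPM under PEG, 21.9 and 22.7 CPM in isotonic medium, 21.6 and 16.9 CPM under the weight and 8.76 and 8.4 CPM uncompressed. Genes of mechanosensing and caveolae had 3 negative calls and 1 positive call of 21, a share below the 23.8% called over all genes, with a median of -0.13 that turned to 0.26 with total-count scaling, 2 calls without weight replicate 1 and 7 with a spread per surface.

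TGF-beta response genes had 7 negative and 2 positive calls of 20, with a median of -0.56 and 5 calls without weight replicate 1. TGFBI, an adhesive matrix protein, was in the opposite class, with 237 and 255 CPM under PEG, 453 and 634 CPM in isotonic medium, 791 and 762 CPM under the weight and 332 and 336 CPM uncompressed. ID2, an inhibitor of helix-loop-helix factors, had an interaction of -3.53 ± 0.42 (adjusted p = 0.00176). Extracellular matrix and integrin genes had 7 negative and 5 positive calls of 25 tested (33 listed), a median of -0.24 that turned to 0.14 with total-count scaling, and 6 calls without weight replicate 1. The negative calls were LOX, LOXL2, LOXL4, COL18A1, COL1A1, PLOD2 and FN1, and the positive ones ITGA2, ITGA3, ITGA5, ITGA6 and LAMB1; those not named by the rule complete the counts, and 13 members had no call. LOX, which cross-links collagen, had 70.3 and 47.1 CPM under PEG, 842 and 663 CPM in isotonic medium, 732 and 744 CPM under the weight and 579 and 546 CPM uncompressed. ITGA3, the laminin-binding integrin alpha-3, had 46.3 and 98.7 CPM under PEG, 0.364 and 0.512 CPM in isotonic medium, 11.2 and 12.6 CPM under the weight and 1.54 and 1.33 CPM uncompressed, with an interaction of 4.33 ± 0.60 (adjusted p = 0.00303).

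Matrix proteases and their inhibitors had 8 positive and 3 negative calls of 19 tested (28 listed), with a median of 0.43 and 8 to 14 calls with 1 library left out. The metalloprotease inhibitors TIMP2 and TIMP3 went apart. TIMP2 had 441 and 540 CPM under PEG, 39.6 and 42.2 CPM in isotonic medium, 96.2 and 99.2 CPM under the weight and 30.6 and 32.4 CPM uncompressed. TIMP3 had 130 and 116 CPM under PEG, 458 and 423 CPM in isotonic medium, 337 and 349 CPM under the weight and 291 and 279 CPM uncompressed. The interactions were 1.95 ± 0.21 (adjusted p = 0.00115) for TIMP2 and -2.11 ± 0.19 (adjusted p = 0.000557) for TIMP3.

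Actin cytoskeleton genes had 6 positive and 3 negative calls of 38, about the 23.8% called over all genes, and 1 call without weight replicate 1; with total-count scaling the calls were 14 positive and 1 negative. EZR, the membrane linker ezrin, had an interaction of 1.19 ± 0.18 (adjusted p = 0.00410). TMSB4X, the actin-sequestering thymosin beta-4, had 4.91 and 4.19 CPM under PEG, 3.47 and 1.96 CPM in isotonic medium, 24.1 and 21.6 CPM under the weight and 4.11 and 3.31 CPM uncompressed. Its interaction of -1.89 ± 0.42 (adjusted p = 0.0184) lost its call without any 1 of the transwell libraries (adjusted p = 0.0636 to 0.0945). Epithelial junction and keratin genes had 6 negative and 2 positive calls of 26, with a median of -0.09 that turned to 0.30 with total-count scaling and 3 calls without weight replicate 1. KRT23, a type I keratin, was in the opposite class, with 5.06 and 4.16 CPM under PEG, 21.8 and 18.8 CPM in isotonic medium, 67.6 and 65.3 CPM under the weight and 24.1 and 22.6 CPM uncompressed. Mesenchymal genes had 3 negative and 2 positive calls of 9 tested (16 listed), a median of -0.15 that turned to 0.24 with total-count scaling, and 2 calls without weight replicate 1.

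Immediate early and MAPK feedback genes had 7 positive and 6 negative calls of 26, with a median of -0.13 that turned to 0.26 with total-count scaling and 6 calls without uncompressed replicate 2. DUSP5, a phosphatase that switches off ERK, had 257 and 421 CPM under PEG, 4.13 and 4.65 CPM in isotonic medium, 8.31 and 8.43 CPM under the weight and 2.96 and 3.87 CPM uncompressed, with an interaction of 4.98 ± 0.39 (adjusted p = 0.000415). SPRY4, another feedback inhibitor of this pathway, had 370 and 405 CPM under PEG, 64.6 and 62.6 CPM in isotonic medium, 44.4 and 54.1 CPM under the weight and 74.8 and 77.1 CPM uncompressed. Chemokine and NF-kB feedback genes had 4 negative calls and 1 positive call of 14 tested (22 listed), with a median of -0.47 and 3 calls without weight replicate 1. TNFAIP3, the NF-kB inhibitor A20, had 15.7 and 19.2 CPM under PEG, 139 and 134 CPM in isotonic medium, 89.1 and 82.9 CPM under the weight and 63.5 and 63.9 CPM uncompressed, with an interaction of -3.40 ± 0.22 (adjusted p = 0.000222). Interferon and antigen presentation genes had 3 positive and 2 negative calls of 24, a share near the 23.8% over all genes, with a median of -0.10 that turned to 0.28 with total-count scaling, and 1 call without uncompressed replicate 1. OAS1, an interferon-induced sensor of double-stranded RNA, had 101 and 141 CPM under PEG, 7.44 and 8.23 CPM in isotonic medium, 20.7 and 20.6 CPM under the weight and 9.55 and 9.39 CPM uncompressed.

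Pro-apoptotic genes had 6 positive and 3 negative calls of 27 (23.8% of all genes were called in either direction), with a median of 0.10. They had 4 calls without weight replicate 1. Anti-apoptotic genes had 4 negative and 3 positive calls of 14, with a median of 0.59 and 3 calls without weight replicate 1. MCL1, an inhibitor of mitochondrial apoptosis, had 813 and 746 CPM under PEG, 294 and 307 CPM in isotonic medium, 248 and 239 CPM under the weight and 266 and 251 CPM uncompressed. ATF4 targets, genes of the integrated stress response, had 4 positive and 3 negative calls of 28, a share near the 23.8% over all genes, with a median of 0.15 that changed sign in 2 settings, and 3 calls without weight replicate 1. SLC7A11, the cystine transporter, had 336 and 328 CPM under PEG, 57.2 and 26.8 CPM in isotonic medium, 83.1 and 90.6 CPM under the weight and 94.0 and 105 CPM uncompressed. Nuclear genes of oxidative phosphorylation had 3 negative and 2 positive calls of 39, a share below the 23.8% over all genes, with a median of -0.08 that turned to 0.31 with total-count scaling, and 2 calls without uncompressed replicate 1. By edgeR none of the 13 mitochondrially encoded genes had an interaction call (1 with an unadjusted p under 0.05), limma-voom with a spread per surface called 0 and DESeq2 called 1, positive. In at least 1 other setting all 13 were called. With the settings of the report the values ran from 0.581 to 1.945, so no member had a negative value. Their median was 1.27, which changed sign in 1 setting. Their share of counts was higher in replicate 1 than in replicate 2 of each group, as given above.

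**Figure D4:**
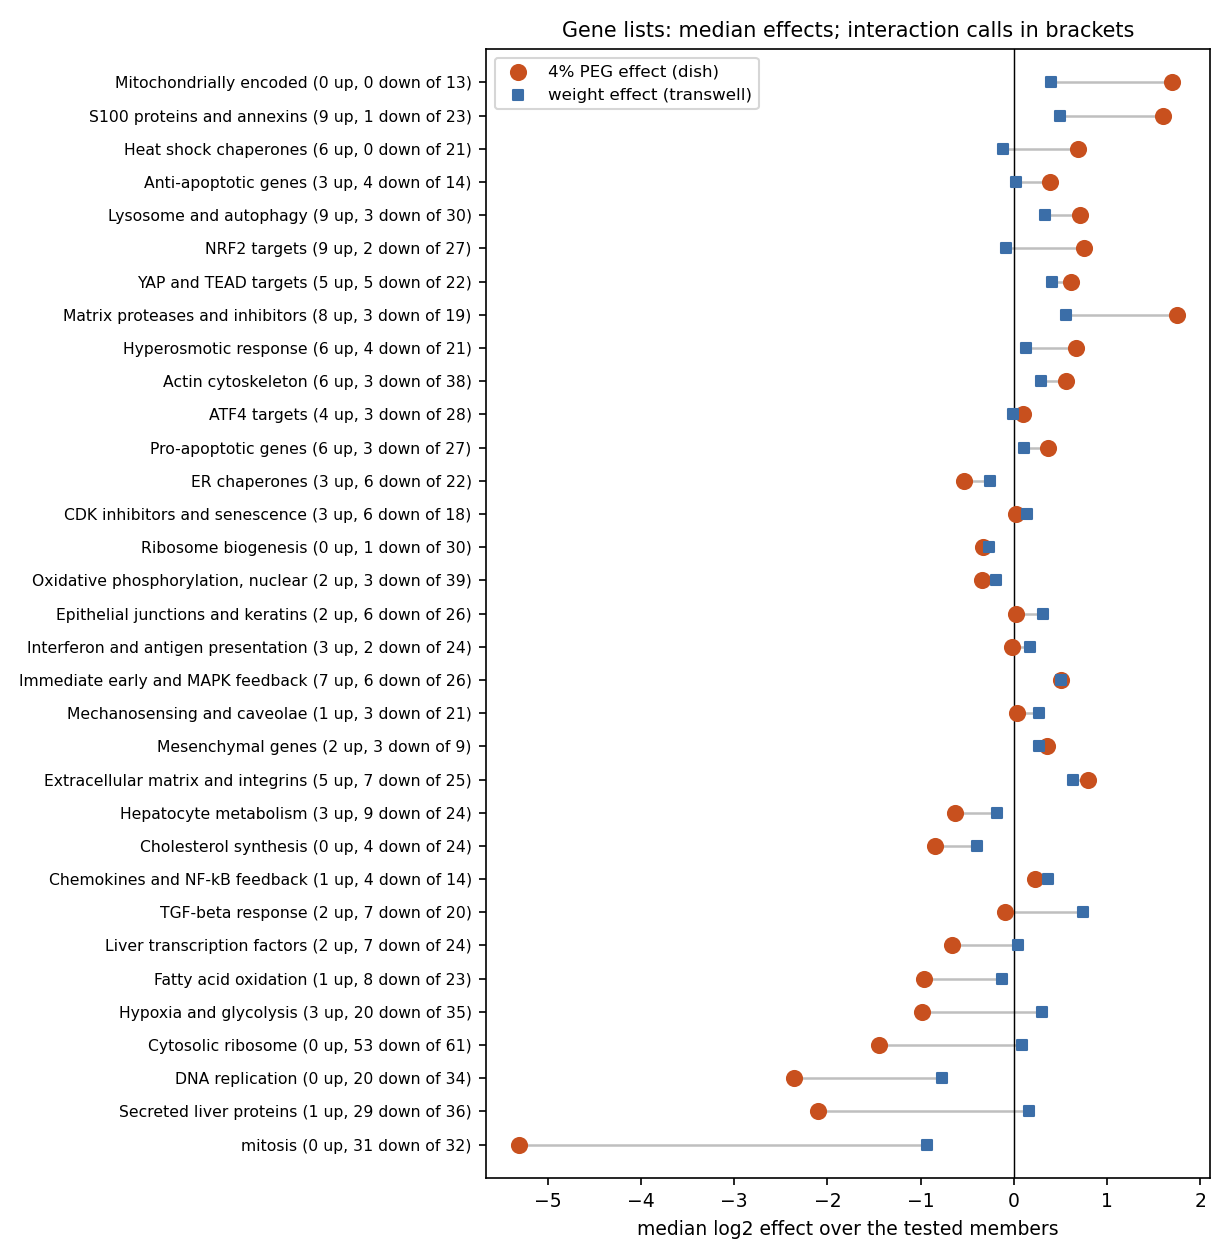
For each of the 33 gene lists, the orange circle is the median log2 PEG effect and the blue square the median log2 weight effect over its tested members (horizontal axis), with the lists ordered by median interaction and the positive (up) and negative (down) interaction calls in brackets. The mitosis list has the widest gap, -5.31 against -0.93, and secreted liver proteins lie at -2.10 for PEG and 0.17 for the weight.

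Genes changed more by the weight than by PEG, in the same direction, numbered 10, all higher. INHBB, which encodes the beta-B subunit of activin and inhibin, had 5.56 and 4.47 CPM under PEG, 2.51 and 2.94 CPM in isotonic medium, 21.3 and 19.4 CPM under the weight and 2.17 and 1.62 CPM uncompressed. Its PEG effect was 0.88 ± 0.25, its weight effect 3.42 ± 0.26 and the interaction -2.54 ± 0.35 (adjusted p = 0.00286). CYP1A1, a target of the aryl hydrocarbon receptor, had 20.9 and 21.8 CPM under PEG, 8.33 and 13.9 CPM in isotonic medium, 85.1 and 91.1 CPM under the weight and 9.75 and 8.51 CPM uncompressed. For both genes the weight libraries stood above all others. In 6 of the 10 genes the uncompressed groups differed more than the compressed ones, HOMER2 and HK1 among them. LOXL2 lost its interaction call without weight replicate 1 or uncompressed replicate 2 (adjusted p = 0.0542 and 0.0604). HOMER2 lost it without any library but isotonic replicate 2 (adjusted p = 0.0560 to 0.188), and HK1 without any library but PEG replicate 2 and isotonic replicate 2 (adjusted p = 0.0549 to 0.191).

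Genes called in the same direction without an interaction call numbered 184, of which 152 were higher and 32 lower under both. That does not show that the effects were equal: the median width of the 95% interval of the interaction was 1.88 on the log2 scale, and the median absolute interaction was 0.49. RIN2, a regulator of RAB5 and endocytosis, had 56.4 and 59.9 CPM under PEG, 8.24 and 7.98 CPM in isotonic medium, 19.2 and 19.1 CPM under the weight and 3.08 and 2.39 CPM uncompressed. Its effects were 2.84 ± 0.19 under PEG and 2.81 ± 0.19 under the weight, with an interaction of 0.03 ± 0.27 (adjusted p = 0.943). AXL, a receptor tyrosine kinase, had 89.3 and 124 CPM under PEG, 12.5 and 14.3 CPM in isotonic medium, 32.6 and 34 CPM under the weight and 6.55 and 6.81 CPM uncompressed. Its interaction of 0.68 ± 0.28 did not pass (adjusted p = 0.121) but did in 5 alternative settings, that without PEG replicate 1 among them. ETS1, a transcription factor of invasive cells, and CD109, a co-receptor for TGF-beta, were higher by 4.46 ± 0.26 and 3.51 ± 0.25 under PEG and by 3.69 ± 0.26 and 3.01 ± 0.25 under the weight. MYOF, a membrane repair protein, had an interaction of 1.40 ± 0.44 (adjusted p = 0.0570), which passed in 8 alternative settings, that without PEG replicate 2 among them.

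The shared lower genes named were enzymes of liver metabolism and 1 receptor. ADH4, an alcohol dehydrogenase, had 15.0 and 9.97 CPM under PEG, 43.8 and 37.2 CPM in isotonic medium, 13.5 and 15.8 CPM under the weight and 46.1 and 46.0 CPM uncompressed. AKR1D1, which reduces bile acid precursors, had 2.68 and 3.49 CPM under PEG, 15.4 and 15.6 CPM in isotonic medium, 6.03 and 8.34 CPM under the weight and 28.6 and 27.7 CPM uncompressed. SPTLC3 and MCCC2, of sphingolipid synthesis and leucine breakdown, had interactions of -0.27 ± 0.35 (adjusted p = 0.615) and 0.04 ± 0.18 (adjusted p = 0.899). ANTXR1, an anthrax toxin receptor, had one of -0.77 ± 0.29 (adjusted p = 0.0950), which passed in 3 alternative settings, that without isotonic replicate 2 among them. The 294 same-direction calls rested on the weight calls too: there were 0 without either uncompressed library, 38 and 37 without weight replicate 1 or 2, and 485 and 474 without isotonic replicate 1 or 2.

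Among genes with a mean of at least 5 CPM, the 8 largest positive interactions belonged to genes that were low outside PEG. Ranking by size favours such genes, so this layout is not a separate result. Genes under 1 CPM in all other libraries passed the filter through PEG alone. Their weight effect compares groups near 0, so their interaction largely restates the PEG effect. NOS3, endothelial nitric oxide synthase, had 208 and 428 CPM under PEG, 1.89 and 4.39 CPM in isotonic medium, 4.32 and 3.90 CPM under the weight and 5.84 and 3.94 CPM uncompressed, with an interaction of 6.93 ± 0.70 (adjusted p = 0.00101). The 4 endothelial markers summed to 12.1 and 13.2 CPM under PEG, 11.2 and 13.5 CPM in isotonic medium, 10.8 and 10.7 CPM under the weight and 6.20 and 6.30 CPM uncompressed, with KDR near 0 in all 8 libraries. LAIR2, a soluble collagen-binding receptor, had 76.7 and 121 CPM under PEG and at most 0.381 CPM elsewhere, and MCTP1, a calcium-sensing membrane protein, had 31.7 and 29.6 CPM under PEG and at most 0.395 CPM elsewhere. RBPMS2 and IGFN1 followed the same layout, with 22.7 and 26.6 CPM and 27.5 and 34.6 CPM under PEG. ARHGEF4 had 2640 counts over the PEG pair, 1 over the isotonic pair, 4 over the weight pair and 6 over the uncompressed pair; such low counts give no dependable fold. The long noncoding RNA DRAIC lost its call without uncompressed replicate 2 (adjusted p = 0.119).

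The 8 largest negative interactions above the same level belonged to genes low under PEG. Ranking by size favours this layout too, and a fold that rests on a few PEG counts is not dependable. SLC6A14, an amino acid transporter, had 0.235 and 0.0918 CPM under PEG, 85.1 and 49.0 CPM in isotonic medium, 86.2 and 78.0 CPM under the weight and 69.8 and 61.5 CPM uncompressed, with an interaction of -8.95 ± 0.54 (adjusted p = 0.000222). SERPINA7, the thyroxine-binding globulin, had 3.62 and 2.66 CPM under PEG, 346 and 399 CPM in isotonic medium, 378 and 381 CPM under the weight and 299 and 294 CPM uncompressed. SLC12A3, a sodium chloride cotransporter, had 1 count over the PEG pair, 793 over the isotonic pair, 774 over the weight pair and 351 over the uncompressed pair. F13B, a coagulation factor subunit, had 2 counts over the PEG pair, 455 over the isotonic pair, 253 over the weight pair and 345 over the uncompressed pair. RTN4RL2, a Nogo receptor homologue, varied within the dish pairs, with 0.324 and 1.04 CPM under PEG, 7.81 and 26.6 CPM in isotonic medium, 25.8 and 25.8 CPM under the weight and 4.90 and 5.38 CPM uncompressed.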

How the data were processed

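Total RNA had been extracted with an RNeasy kit and read as paired ends of 100 bases on HiSeq or NovaSeq instruments, per the labels' protocols, with the instrument of each library unstated. The deposited table holds raw counts per gene made by the authors, neither pooled nor normalised. STAR, DESeq2, GRCh38 and hg38 are named in the submitters' processing notes without versions; no counter or annotation is named there. GENCODE 29 supplied the coordinates. Entries without a gene name held at most 0.308% of a library.

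The 8 HepG2 libraries were fitted with 1 mean per group (4 residual degrees of freedom) by edgeR 4.0.16 in R 4.3.3: TMM scaling, genes with at least 1 CPM in 2 libraries, glmQLFit with robust estimation and glmQLFTest, Benjamini-Hochberg adjustment over 14536 genes, threshold 0.05. CPM values are TMM-scaled. Each ± is a standard error taken as the absolute log2 effect over the square root of the F statistic of its test. It may be too small where a group holds few counts, as in genes near 0 under PEG. The fit was tested on simulated data. These drew all 8 libraries from 1 spread per gene, so they did not test the unequal spread of dish and transwell. Intervals cover counting and replicate error of these libraries only. Alternatives were RLE and total-count scaling, other filters, DESeq2 1.42.0, limma 3.58.1 (voom with a spread per surface), replicate blocks, all 14 libraries, a GC correction, a minimum log2 change of 1, an adjusted p of 0.01 and each library left out.

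Named genes were those with a mean of at least 5 CPM and separate library-pair ratios: the 8 largest interactions per direction, the 5 largest per class of calls, up to 3 called members per list with the smallest interaction p, and 5 genes per direction called by both effects without an interaction call, with the smallest larger p of the 2 effects. That last group needed no separate ratios. Not every gene this rule names is reported here. The interaction, the 33 gene lists and the naming rule were chosen with earlier results of these data known.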

Additional observations from a re-analysis of the deposited data

How the results depend on the processing

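With 2 libraries per group and unequal spread between surfaces, how many genes passed depended on the model, while the sign of the called interactions did not: no gene called with the settings of the report was called with the other sign under any alternative. The cause of the changes below was not tested, unless the setting itself uses fewer samples or asks for larger changes. Interaction calls (3465) stayed within 1.5 times under RLE or total-count scaling, other filters, DESeq2, a spread per surface and the replicate block, and moved to 8666 with a replicate block within surface, 5600 with all 14 libraries, 6693 with a GC correction and 1163 with a minimum log2 difference of 1. They ran from 1397 to 4139 with 1 library left out. PEG calls (6260) moved to 3175 with a spread per surface, 10589 with the block within surface and 2149 with the minimum difference, and ran from 5004 to 6348 with 1 library left out. Weight calls (487) moved to 1380 with no filter, 1148 with DESeq2, 6514 with a spread per surface, 753 with the replicate block, 5065 with the block within surface, 1887 with all 14 libraries, 2516 with the GC correction and 98 with the minimum difference, and ran from 0 to 947 with 1 library left out.

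Counts of genes lower under PEG and higher under the weight (89) moved to 213 with no filter, 183 with DESeq2, 430 with a spread per surface, 143 with the replicate block, 868 with the block within surface, 275 with all 14 libraries, 446 with the GC correction, 9 with the minimum difference and 22 at an adjusted p of 0.01, with 0 to 184 when 1 library was left out. Counts of genes higher under PEG and lower under the weight (9) moved to 21 with total-count scaling, 35 with no filter, 41 with DESeq2, 205 with a spread per surface, 22 with the replicate block, 553 with the block within surface, 137 with all 14 libraries, 168 with the GC correction, and 1 both with the minimum difference and at 0.01, with 0 to 34 when 1 library was left out. Same-direction calls (294) moved to 687 with no filter, 610 with DESeq2, 1318 with a spread per surface, 2585 with the block within surface, 1035 with all 14 libraries, 1301 with the GC correction, 58 with the minimum difference and 78 at 0.01, with 0 to 485 when 1 library was left out. Replicate numbers were not used to pair samples: each surface holds 2 numbers, and the labels do not say that a number marks a shared batch. Replicate differences correlated at 0.779 between the dish pairs, 0.12 between the transwell pairs and 0.0199 to 0.0711 across surfaces. A single replicate block gave 4298 interaction calls, and the block within surface the 8666 above.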
